A study of Mus musculus with 8 samples.

Results

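The 9 genes described here mark the formative and primed states of pluripotency, and they were taken as a fixed list of symbols: Lef1, Foxd3, Otx2, Zic2, Zic5, Fgf5, Pou3f1, Dnmt3a and Dnmt3b. All 9 were listed in the comparison of dual-targeted lines with wildtype cells and 8 were listed in all 4 deposited comparisons, out of 16896 genes listed in at least 1 of them. The measurement was TT-seq, in which cells take up 4-thiouridine (4sU, 500 nM for 5 min) and the labelled, newly made RNA is pulled out and sequenced. All lines derive from E14 (ES-E14TG2a), male mouse embryonic stem cells, and the mutant lines carried alanine in place of lysine 122 of histone H3.3 at some of the 4 alleles of H3f3a and H3f3b. Dual-targeted cells were represented by 3 lines, each mutant at 3 of the alleles, namely 2 clones with H3f3a A/A and H3f3b WT/A, called the clones below, and 1 further line, called the third dual-targeted line below, with H3f3a WT/A and H3f3b A/A. Single-targeted cells were represented by 2 lines, each mutant at 2 alleles, the first with H3f3a A/A beside H3f3b WT/WT and the second with H3f3b A/A beside H3f3a WT/WT. Wildtype cells gave 3 libraries, described as biological replicates, while each mutant line was sequenced once, so replicate error on the mutant side is variation from line to line. The culture notes describe LIF medium with 10% FBS and a LIF medium with a GSK3 inhibitor (CHIR99021, 3 µM) and a MEK inhibitor (1 µM), and do not say which one these libraries had.

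Pluripotent cells progress from a naive state, held by LIF and by blocking ERK, through a formative state to a primed state that is ready to enter the germ layers. FGF signalling through ERK drives the transition, OTX2 and POU3F1 (OCT6) switch enhancers over to the new state, FOXD3 helps to open and then silence enhancers, ZIC2 and ZIC5 are zinc finger factors, and LEF1 is the Wnt effector that binds beta-catenin. The secreted factor FGF5 is a classical marker of the primed epiblast, and DNMT3A and DNMT3B add the DNA methylation that the naive genome lacks.

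Values per library were not analysed here, so the levels below are group means. They were rebuilt by subtraction from the 4 deposited mean normalized counts and carry no error, and the test of each difference is the authors' adjusted p, with a call at under 0.05. Fold changes with a standard error (SE) are the authors' and are shrunken towards 0. Counts are not divided by gene length, so levels are compared between groups and not between genes. The stem cell label was borne out by Pou5f1, Sox2, Nanog, Zfp42, Sall4 and Utf1, whose rebuilt means in wildtype cells lay between 306.6 counts for Utf1 and 4554 counts for Zfp42. In bulk samples, fewer cells of a type and less RNA per cell cannot be told apart. Depth per library is unknown, and the mean normalized counts summed to between 1.08e+07 and 1.26e+07 in the authors' deposited tables.

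The 9 genes did not move as a block. In dual-targeted lines against wildtype, where 20.9% of all tested genes were called in the authors' deposited table, 4 members were higher (Lef1, Foxd3, Pou3f1 and Dnmt3b) and 2 were lower (Zic2 and Zic5), and 10.8% of all tested genes lay on the higher side and 10.1% on the lower. In the clones alone, the same 4 were higher and Otx2, Zic2 and Zic5 were lower among 8 listed members, beside 19.3% of all genes called, 9.05% higher and 10.3% lower, per the authors' deposited table. In single-targeted lines 0 were higher and 3 were lower (Otx2, Zic2 and Zic5) of the 8 members that had an adjusted p, where 2.96% of all genes were called, 1.49% higher and 1.47% lower, per the authors' deposited table. At an unadjusted p under 0.05 in that DESeq2 comparison, 2 members were higher and 5 lower. Between the dual-targeted and the single-targeted lines, 2 members (Lef1 and Foxd3) were higher and 0 lower in the authors' deposited table, where 7.06% of all genes were called, 4.37% higher and 2.69% lower. At an unadjusted p under 0.05 by DESeq2, 6 members were higher and 0 lower there. All shares of all genes, here and below, are at an adjusted p. The share at an unadjusted p was not worked out, so counts at an unadjusted p have no share to be set against. The median log2 fold change of the listed members was 0.12, -0.27, 0.42 and 0.37 in the dual-targeted, the single-targeted, the dual-over-single and the clone comparison, where all genes had medians between -0.00 and 0.01 in the authors' deposited tables. The comparisons with wildtype share the same 3 wildtype libraries, and the clones enter both the dual-targeted and the clone comparison.

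**Figure D1:**
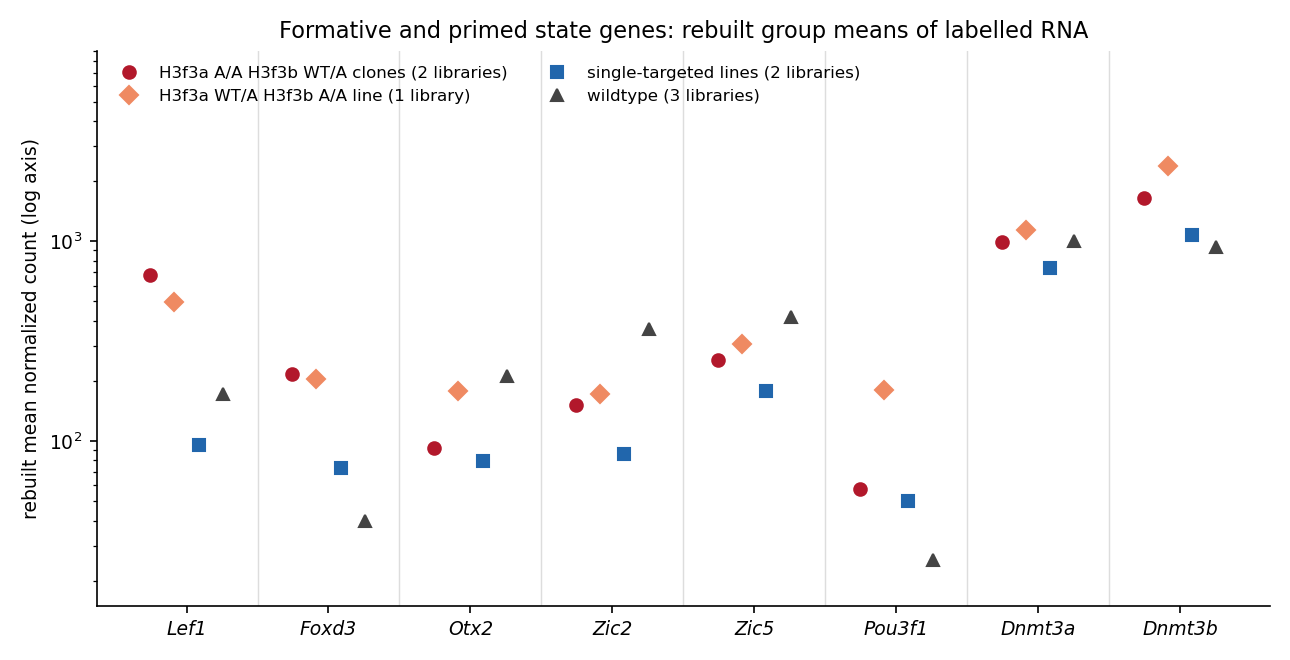
Rebuilt mean normalized count (log axis) of the 8 members listed in all 4 comparisons, in the clones (H3f3a A/A H3f3b WT/A), the third dual-targeted line (H3f3a WT/A H3f3b A/A), the single-targeted lines and wildtype cells; points are group means without error. Lef1 sits at 675.1 and 497.4 counts in the dual-targeted groups, above 95.2 in single-targeted lines and 172.5 in wildtype cells, while Zic2 is highest in wildtype cells.

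Lef1 (chromosome 3, 131110471 to 131224356, GRCm38, plus strand) was higher with 3 mutant alleles and not with 2. Its rebuilt means were 675.1 normalized counts in the clones and 497.4 counts in the third dual-targeted line, against 95.2 counts in single-targeted lines and 172.5 counts in wildtype cells. Both genotypes with 3 mutant alleles thus lay above wildtype, by 3.91-fold and 2.88-fold on these means, and the single-targeted mean lay below it. In the clones alone the log2 fold change over wildtype was 1.93 ± 0.23 (SE, adjusted p = 2.00e-15 per the authors' deposited table). The dual-targeted lines exceeded the single-targeted lines by 2.64 ± 0.30 on the log2 scale (SE, adjusted p = 3.00e-16 per the authors' deposited table), a difference of 6.47-fold between the rebuilt means. By log2 fold change Lef1 ranked 2 from the highest of the 11412 genes whose mean count reached 50 in that comparison. In single-targeted lines against wildtype the log2 fold change was -0.59 ± 0.36 and missed the threshold (adjusted p = 0.0964 per the authors' deposited table).

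A separately annotated transcript, Gm42449, lies inside the bounds of Lef1 on the same strand (131136785 to 131139042). It was higher in dual-targeted lines than in wildtype by 1.77 ± 0.37 and higher than in single-targeted lines by 2.25 ± 0.50 on the log2 scale (adjusted p = 3.93e-06 and 1.67e-04 per the authors' deposited tables). It was thus higher in these 2 comparisons, as Lef1 was. Labelled RNA of Lef1 can itself cover this stretch, so Gm42449 is not a measurement separate from Lef1. The sources used here do not give how reads shared by overlapping genes were assigned or whether strand was used, so reads of a gene and of an antisense partner such as Gm43352 at the start of Lef1 cannot be told apart.

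Foxd3 (chromosome 4, 99656299 to 99658622, plus strand), a forkhead factor, had the largest fold change of the 9 in dual-targeted lines. Its rebuilt means were 216.3 counts in the clones and 204.9 counts in the third dual-targeted line, against 73.0 counts in single-targeted lines and 39.6 counts in wildtype cells. The 2 dual-targeted genotypes lay within 1.06-fold of each other and at 5.46 and 5.17 times the wildtype mean. In the clones alone the log2 fold change was 2.35 ± 0.34 (adjusted p = 1.33e-10 per the authors' deposited table). Over the single-targeted lines the dual-targeted lines were higher by 1.43 ± 0.31 on the log2 scale (adjusted p = 1.46e-04 per the authors' deposited table). Single-targeted lines had a log2 fold change of 0.23 ± 0.36 over wildtype, which was not called (adjusted p = 0.317 per the authors' deposited table), while their rebuilt mean was 1.84 times that of wildtype. Gm12688, an opposite-strand transcript within 5000 bp of Foxd3, was not called in dual-targeted lines (log2 fold change 0.66 ± 0.38, adjusted p = 0.0665 per the authors' deposited table).

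Pou3f1 (chromosome 4, 124656807 to 124660655, plus strand) was higher in dual-targeted lines by 1.74 ± 0.46 on the log2 scale (adjusted p = 2.42e-04 per the authors' deposited table). The rebuilt means showed that the lines differed: 57.4 counts in the clones and 180.5 counts in the third dual-targeted line, against 50.2 counts in single-targeted lines and 25.3 counts in wildtype cells. The library of the third dual-targeted line therefore stood at 3.14 times the clones, a difference with no replicate and no test. In the clones alone Pou3f1 was higher by 0.88 ± 0.45 (adjusted p = 0.0360 per the authors' deposited table). The difference between dual-targeted and single-targeted lines, 0.19 ± 0.33, was not called (adjusted p = 0.281 per the authors' deposited table). Nor was that of single-targeted lines over wildtype, 0.18 ± 0.29 at a mean count of 35.9 (adjusted p = 0.333 per the authors' deposited table).

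**Figure D2:**
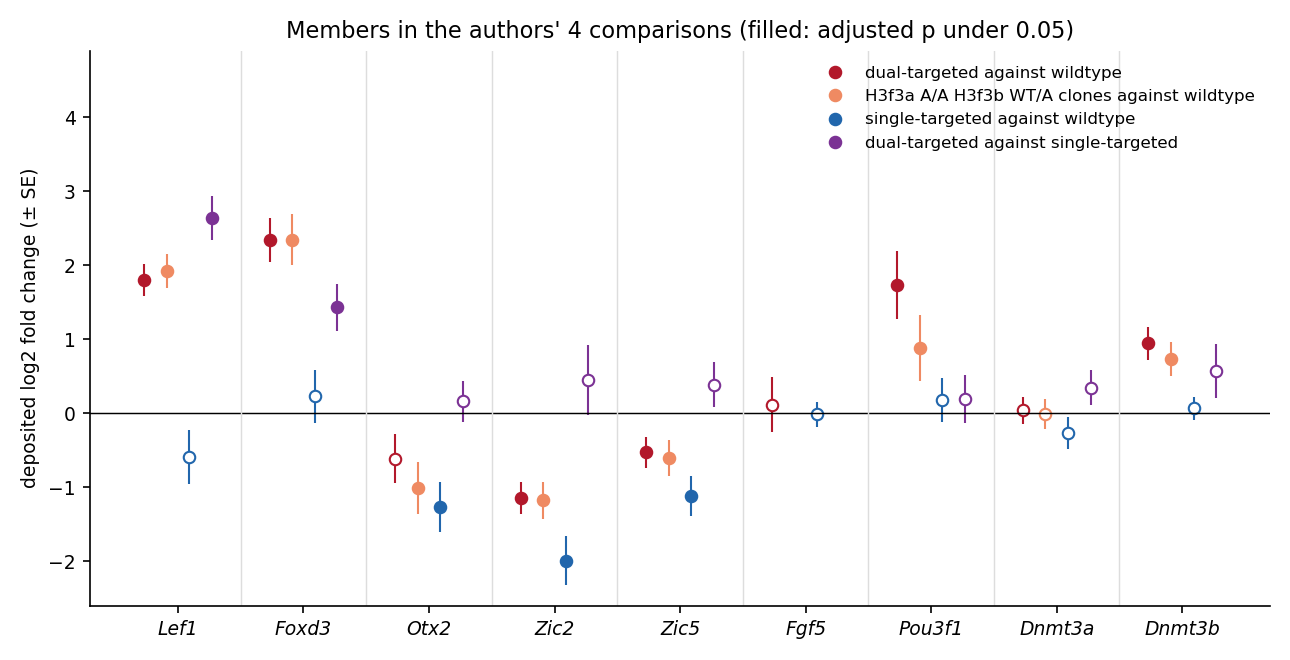
Deposited log2 fold change with its SE (vertical axis) of the 9 members in the authors' 4 comparisons; filled points have an adjusted p under 0.05 and open points do not, or have none. Lef1 and Foxd3 carry filled points in the dual-over-single comparison, at 2.64 and 1.43, and Otx2, Zic2 and Zic5 carry filled points below 0 in single-targeted lines.

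Of the de novo DNA methyltransferases, Dnmt3b rose and Dnmt3a was not called. Dnmt3b (chromosome 2, 153649450 to 153687730, plus strand) had rebuilt means of 1643 counts in the clones and 2391 counts in the third dual-targeted line, against 1076 counts in single-targeted lines and 937.4 counts in wildtype cells. Both dual-targeted genotypes were above the other groups. The log2 fold change over wildtype was 0.95 ± 0.22 in dual-targeted lines (adjusted p = 7.89e-05) and 0.74 ± 0.23 in the clones alone (adjusted p = 0.00350), per the authors' deposited tables. Over the single-targeted lines it was 0.57 ± 0.36 and was not called (adjusted p = 0.0867 per the authors' deposited table), and in single-targeted lines over wildtype it was 0.07 ± 0.16 (adjusted p = 0.835 per the authors' deposited table). Dnmt3a (chromosome 12, 3806007 to 3914443, plus strand) had rebuilt means of 990.2 counts in the clones, 1135 counts in the third dual-targeted line, 738.3 counts in single-targeted lines and 1004 counts in wildtype cells. Its log2 fold changes over wildtype were 0.04 ± 0.18 in dual-targeted lines (adjusted p = 0.885) and -0.27 ± 0.22 in single-targeted lines (adjusted p = 0.321) per the authors' deposited tables. Dnmt3l, the catalytically inactive partner of both enzymes, was higher in dual-targeted lines than in wildtype by 0.78 ± 0.21 (adjusted p = 6.99e-04) and than in single-targeted lines by 0.76 ± 0.27 (adjusted p = 0.0131) per the authors' deposited tables. The maintenance enzyme Dnmt1 stood at -0.09 ± 0.16 (adjusted p = 0.703 per the authors' deposited table).

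The promoters of Lef1, Foxd3 and Dnmt3b are printed because these genes rose and their start regions can be compared letter by letter. Each is the most upstream RefSeq window (GRCm38.p6), from 250 bases before the start to 50 after it, on the plus strand: chr3:131110047-131110346, chr4:99656049-99656348 and chr2:153649199-153649498. Capitals mark matches to the motifs named next.
Lef1: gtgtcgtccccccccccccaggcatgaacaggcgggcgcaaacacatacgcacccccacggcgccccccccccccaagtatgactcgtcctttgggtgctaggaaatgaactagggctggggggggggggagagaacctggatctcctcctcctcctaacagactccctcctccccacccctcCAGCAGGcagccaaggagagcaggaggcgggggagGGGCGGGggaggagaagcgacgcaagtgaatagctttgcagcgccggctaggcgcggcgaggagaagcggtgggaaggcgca
Foxd3: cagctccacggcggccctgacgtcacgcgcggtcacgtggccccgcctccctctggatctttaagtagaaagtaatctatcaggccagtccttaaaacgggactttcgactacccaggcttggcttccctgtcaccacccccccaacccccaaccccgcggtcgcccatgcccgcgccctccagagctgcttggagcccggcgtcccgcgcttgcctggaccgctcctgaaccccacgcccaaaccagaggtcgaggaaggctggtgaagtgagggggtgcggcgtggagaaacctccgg
Dnmt3b: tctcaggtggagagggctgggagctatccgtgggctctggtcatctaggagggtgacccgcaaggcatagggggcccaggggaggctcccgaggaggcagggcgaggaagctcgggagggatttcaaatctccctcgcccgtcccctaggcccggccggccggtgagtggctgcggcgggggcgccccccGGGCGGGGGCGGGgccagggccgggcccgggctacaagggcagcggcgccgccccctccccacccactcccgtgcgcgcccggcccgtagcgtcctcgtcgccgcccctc
Both strands were searched for 9 motifs, and each share that follows is of the 32851 RefSeq windows. The TCF/LEF motif was searched as CTTTGAA, held by 5.14% of windows, with a last-base variant CTTTGAT, held by 3.73%. The OTX motif TAATCC was held by 7.06%, the octamer ATGCAAAT by 1.74%, the forkhead motif TGTTTAC by 3.65% and the STAT motif TTCCNGGAA by 1.15%. The ZIC motif CAGCAGG was held by 10.5%, the TATA motif TATAAA by 13.6% and the SP/KLF motif GGGCGGG by 25.6%. Counting the start as 0, the Lef1 window held CAGCAGG from position -67 and GGGCGGG from -32. The Dnmt3b window held GGGCGGG from -60 and again from -54, overlapping by 1 base, and the Foxd3 window held none of the 9 motifs. All were rich in CpG, with 18, 25 and 30 CpG in the Lef1, Foxd3 and Dnmt3b windows against a median of 7 over all windows.

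Zic2 and Zic5 lie close together on opposite strands of chromosome 14, and both were lower in every comparison with wildtype. Zic2 (122475435 to 122479852, plus strand) had rebuilt means of 151.4 counts in the clones, 171.6 counts in the third dual-targeted line and 86.4 counts in single-targeted lines, against 366.1 counts in wildtype cells. All mutant groups were below 50% of wildtype, and single-targeted lines were lowest at 23.6%. In single-targeted lines Zic2 ranked 3 from the lowest of the 11686 genes whose mean count reached 50, by a log2 fold change of -1.99 ± 0.33 (adjusted p = 1.02e-07 per the authors' deposited table). In the clones it was -1.18 ± 0.25 (adjusted p = 8.22e-06 per the authors' deposited table). The difference between dual-targeted and single-targeted lines, 0.45 ± 0.47, was not called (adjusted p = 0.147 per the authors' deposited table).

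Zic5 (122456795 to 122465677, minus strand) had rebuilt means of 253.8 counts in the clones, 306.9 counts in the third dual-targeted line and 177.6 counts in single-targeted lines, against 416.5 counts in wildtype cells. The order of the groups was that of Zic2, with smaller differences from wildtype. Its log2 fold changes were -0.53 ± 0.21 in dual-targeted lines (adjusted p = 0.0260) and -1.12 ± 0.27 in single-targeted lines (adjusted p = 3.07e-04) per the authors' deposited tables. Between dual-targeted and single-targeted lines it was 0.38 ± 0.30 and was not called (adjusted p = 0.170 per the authors' deposited table). The means above are scaled as described below. Without scaling, the third dual-targeted line lay below the clones for both genes. The unscaled log2 ratios to wildtype of these 2 groups were -1.79 and -1.16 for Zic2, and -0.92 and -0.68 for Zic5. Zic2 and Zic5 are paralogs, and the sources used here do not give how reads that match both were counted.

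Between Zic5 and Zic2 lies 2610035F20Rik (122470284 to 122475199, minus strand), a processed transcript of low level. Its log2 fold change against wildtype was -2.06 ± 0.55 in dual-targeted lines (adjusted p = 2.69e-04), -2.09 ± 0.70 in single-targeted lines (adjusted p = 0.00784) and -2.10 ± 0.63 in the clones (adjusted p = 9.33e-04) per the authors' deposited tables. The 3 adjoining genes were thus lower in each comparison with wildtype. In single-targeted lines this was the single called gene among the 11 neighbours examined, that is, the 5 listed genes on each side and the 1 between, whose median log2 fold change was 0.01 in the authors' deposited table. Gm6254 and Gm17082 lie inside the bounds of Tm9sf2 and Gm49260 inside those of Pcca, so the 11 are not all separate loci. In the clones the median of the 11 was -0.11 in the authors' deposited table, where 10.3% of all tested genes were lower and 9.05% higher. Of the 11, 3 were lower there and 0 higher, with 4 at an unadjusted p under 0.05 by DESeq2. The other 2 were Clybl, a mitochondrial lyase gene, at -2.05 ± 0.36 (adjusted p = 4.00e-08) and Tmtc4 at -1.03 ± 0.31 (adjusted p = 0.00151) per the authors' deposited table. In single-targeted lines Clybl stood at -0.23 ± 0.26 (adjusted p = 0.395) and Tmtc4 at -0.01 ± 0.14 (adjusted p = 0.983) per the authors' deposited table. In dual-targeted against single-targeted lines both were called lower, Clybl at -1.25 ± 0.46 (adjusted p = 0.0130) and Tmtc4 at -0.87 ± 0.33 (adjusted p = 0.0180), per the authors' deposited table. On rebuilt means the log2 ratio of Clybl to wildtype was -2.20 in the clones, -1.84 in the third dual-targeted line and -0.54 in single-targeted lines. For Tmtc4 the ratios were -1.19, -0.94 and -0.03 in the same order.

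Otx2 (chromosome 14, 48657677 to 48673819, minus strand) was lower in single-targeted lines and in the clones. Its rebuilt means were 92.5 counts in the clones, 177.9 counts in the third dual-targeted line and 79.8 counts in single-targeted lines, against 211.5 counts in wildtype cells. The clones and the single-targeted lines were low, at 43.7% and 37.7% of wildtype, and the third dual-targeted line stood at 84.1%. That last value depends on the scaling of the means described below. With it the log2 ratio to wildtype of the third dual-targeted line was -0.25, and without it -0.63. The log2 fold change was -1.27 ± 0.34 in single-targeted lines (adjusted p = 0.00110) and -1.01 ± 0.36 in the clones (adjusted p = 0.00517) per the authors' deposited tables. For the 3 dual-targeted lines together it was -0.62 ± 0.33 and missed the threshold (adjusted p = 0.0592 per the authors' deposited table). Dual-targeted and single-targeted lines did not differ at the threshold (0.16 ± 0.28, adjusted p = 0.425 per the authors' deposited table).

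Most genes around Otx2 were called lower in the clones, and none was called in single-targeted lines; the clones and the single-targeted lines were not tested against each other. Of all tested genes 10.3% were lower in the clones and 9.05% higher. The 10 neighbours, 5 on each side, had a median log2 fold change of -0.85 there and a range of -1.31 to -0.22 in the authors' deposited table. Gm49204 lies inside the bounds of Exoc5 and Gm49310 inside those of Peli2, so the 10 are not all separate loci. Of these 10, 7 were lower in the clones and 0 higher. They included Ap5m1 at -1.31 ± 0.28 (adjusted p = 9.34e-06), Exoc5, a subunit of the exocyst, at -1.13 ± 0.28 (adjusted p = 1.51e-04), and Ktn1, the kinesin receptor kinectin, at -1.07 ± 0.20 (adjusted p = 3.40e-07) per the authors' deposited table. In the single-targeted comparison 0 of these 10 were called by DESeq2, 0 had an unadjusted p under 0.05, and the fold changes lay between -0.16 and 0.01 in the authors' deposited table. In dual-targeted against single-targeted lines, 0 of the 9 listed neighbours were called by DESeq2 and 1 had an unadjusted p under 0.05 in the authors' deposited table. On rebuilt means, which exist for 9 neighbours, the median log2 ratio to wildtype was -1.15 in the clones, -0.17 in the third dual-targeted line and -0.20 in single-targeted lines, where Otx2 itself stood at -1.19, -0.25 and -1.41. On these scaled means Otx2 had values near those of its neighbours in both dual-targeted genotypes and a lower one in single-targeted lines. The part of the surrounding stretch in the Otx2 value of the clones was not tested.

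**Figure D3:**
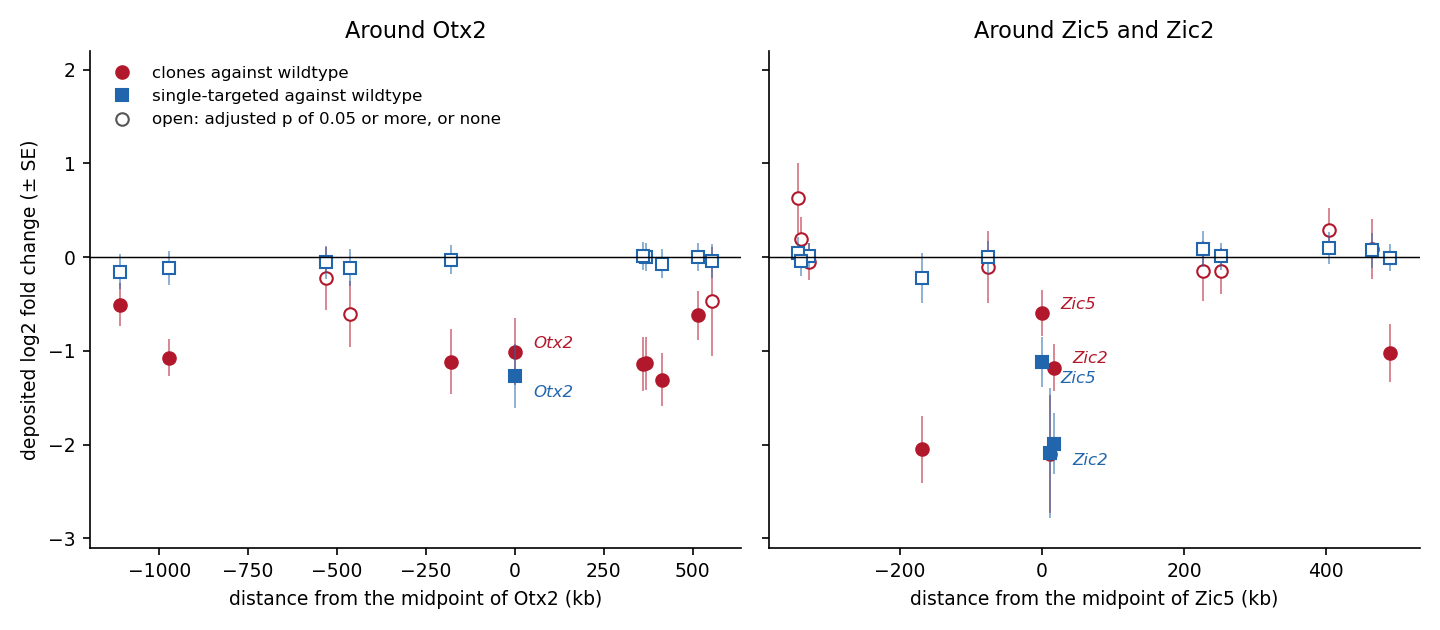
Deposited log2 fold change with SE (vertical axis) against distance in kb from the midpoint of Otx2 (left) or Zic5 (right) for the members and the nearest listed genes, in the clones against wildtype (circles) and in single-targeted lines against wildtype (squares). Around Otx2 the circles lie between -1.31 and -0.22 while the squares of the neighbours lie between -0.16 and 0.01 and that of Otx2 at -1.27.

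The start regions of the lower genes Otx2 and Zic5 are shown for comparison with those above; Zic2 and Pou3f1 had no entry in the table. Each is the most upstream RefSeq window of the minus strand, chr14:48667595-48667894 and chr14:122465609-122465908, read 5′ to 3′ along the gene, with the same motifs in capitals.
Otx2: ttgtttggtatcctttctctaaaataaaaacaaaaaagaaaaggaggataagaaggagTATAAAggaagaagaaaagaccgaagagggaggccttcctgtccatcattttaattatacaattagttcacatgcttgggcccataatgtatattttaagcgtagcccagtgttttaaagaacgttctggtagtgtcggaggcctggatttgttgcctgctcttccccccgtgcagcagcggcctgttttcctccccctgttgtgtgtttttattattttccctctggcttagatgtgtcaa
Zic5: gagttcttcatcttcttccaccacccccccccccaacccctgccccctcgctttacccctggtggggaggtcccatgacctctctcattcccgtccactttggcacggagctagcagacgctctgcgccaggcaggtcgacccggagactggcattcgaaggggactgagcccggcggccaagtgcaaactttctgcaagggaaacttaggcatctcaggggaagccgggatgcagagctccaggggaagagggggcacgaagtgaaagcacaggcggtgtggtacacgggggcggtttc
The Otx2 window held TATAAA from position -192, and the Zic5 window held none of the 9 motifs. Otx2 had 6 CpG in its window and Zic5 had 15, against the median of 7. The Otx2 window lies inside the bounds given above for the gene and not at their 5′ end. Further RefSeq windows of Otx2 held 8, 16 and 11 CpG, and the one with 16 held TAATCC. A match is a description of letters and not of binding.

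Fgf5 (chromosome 5, 98254184 to 98277030, plus strand) was near the lower end of the listed genes. Its mean normalized count was 16.5 over dual-targeted and wildtype libraries and 12.0 over single-targeted and wildtype libraries in the authors' deposited tables, whose lowest listed means were 6.18 and 7.07. It was not called in dual-targeted lines (log2 fold change 0.12 ± 0.37, adjusted p = 0.658 per the authors' deposited table). In single-targeted lines the log2 fold change was -0.02 ± 0.17 with a p of 0.629 and no adjusted p in the authors' deposited table. It was not listed in the other 2 comparisons, so no group mean could be rebuilt.

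The surrounding programme also moved in part. Of 25 other formative and primed genes, 21 were listed in the dual-targeted comparison, of which 6 were higher and 3 lower. Of all tested genes there, 10.8% were higher and 10.1% lower. The median log2 fold change of the 21 was 0.19 in the authors' deposited table. Those with the lowest adjusted p were Grhl2, a factor of epithelial enhancers (1.26 ± 0.20, adjusted p = 7.52e-09), the kinase Pim2 (1.65 ± 0.35, adjusted p = 5.53e-06), the Nodal co-receptor Tdgf1 (0.84 ± 0.20, adjusted p = 1.26e-04) and the RNA-binding Lin28a (0.85 ± 0.22, adjusted p = 3.09e-04) per the authors' deposited table. The Nodal inhibitors Lefty1 and Lefty2 stood at -1.32 ± 0.87 (adjusted p = 0.0284) and -1.02 ± 0.75 (adjusted p = 0.0442) in dual-targeted lines, and at -2.80 ± 0.29 (adjusted p listed as 0) and -2.23 ± 0.30 (adjusted p = 1.02e-12) in the clones, that is, without the third dual-targeted line, per the authors' deposited tables. Nodal was higher in both, by 0.72 ± 0.24 (adjusted p = 0.00464) and 0.67 ± 0.27 (adjusted p = 0.0249), per the authors' deposited tables. In single-targeted lines 0 of 21 were higher and 1 was lower, Lefty2 at -1.35 ± 0.33 (adjusted p = 3.85e-04), with 1 higher and 4 lower at an unadjusted p under 0.05 by DESeq2, in the authors' deposited table. In that comparison 2.96% of all tested genes were called.

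The opposing naive genes were split in dual-targeted lines, with 4 of 14 higher and 2 lower and a median of 0.10 in the authors' deposited table. Of all tested genes there, 10.8% were higher and 10.1% lower. The lowest adjusted p was that of Tcl1, a co-activator of the kinase AKT, which was lower (-1.60 ± 0.23, adjusted p = 5.26e-11), and the other lower gene was Klf2, a Krüppel-like factor (-1.08 ± 0.27, adjusted p = 1.24e-04), per the authors' deposited table. Among the 4 higher ones were Gbx2, a homeobox factor that LIF sustains (1.56 ± 0.28, adjusted p = 1.48e-07), and the Krüppel-like factors Klf4 (1.08 ± 0.20, adjusted p = 3.59e-07) and Klf5 (0.99 ± 0.18, adjusted p = 4.59e-07), per the authors' deposited table. In the clones 5 of 14 were higher and 2 lower, beside 9.05% of all tested genes higher and 10.3% lower. The T-box factor Tbx3 was higher there (1.27 ± 0.22, adjusted p = 5.79e-08) and was not called with the third dual-targeted line included (0.41 ± 0.47, adjusted p = 0.227), per the authors' deposited tables. In single-targeted lines Klf5 (0.97 ± 0.21, adjusted p = 8.92e-05) and Nanog (0.68 ± 0.20, adjusted p = 0.00468) were higher and Tcl1 was lower (-0.76 ± 0.27, adjusted p = 0.0134), per the authors' deposited table. Of the 9 core pluripotency factors, 5 rose and 0 fell in dual-targeted lines (6 and 0 at an unadjusted p under 0.05 by DESeq2), with a median of 0.68 in the authors' deposited table. Of all tested genes 10.8% were higher there and 10.1% lower. Utf1 and Lin28a, which were among the 5, also belong to the other formative and primed genes, so the lists overlap.

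Of 18 genes of the Wnt pathway, 13 were listed in dual-targeted lines against wildtype, and Cdx1, Cdx2, Dkk1, Lgr5 and Sp5 were not. In that comparison the rise of Lef1 was not joined by called changes among the 13, where 20.9% of all tested genes were called. Of these 13, 0 were higher and 0 lower, with 1 higher and 4 lower at an unadjusted p under 0.05 by DESeq2. Their median was -0.09 in the authors' deposited table. Beta-catenin, Ctnnb1, stood at 0.15 ± 0.15 (adjusted p = 0.462) and the direct Wnt target Axin2 at 0.17 ± 0.18 (adjusted p = 0.495) per the authors' deposited table. Against single-targeted lines Axin2 was higher by 0.70 ± 0.27 (adjusted p = 0.0209) and the Wnt deacylase Notum by 1.15 ± 0.48 (adjusted p = 0.0190), while Tcf7l2, a TCF factor related to Lef1, was lower by 0.80 ± 0.36 (adjusted p = 0.0326) per the authors' deposited table. Single-targeted lines had Notum below wildtype at -1.18 ± 0.40 (adjusted p = 0.00784 per the authors' deposited table). In the clones Tcf7l2 at -0.77 ± 0.25 (adjusted p = 0.00471) and Tcf7 at -0.64 ± 0.29 (adjusted p = 0.0355) were lower than in wildtype per the authors' deposited table. With the third dual-targeted line included they were not called, at -0.45 ± 0.25 (adjusted p = 0.101) and -0.46 ± 0.26 (adjusted p = 0.102), per the authors' deposited table.

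Of 13 listed genes of FGF and ERK signalling, the route that induces Fgf5, 4 rose and 0 fell in dual-targeted lines, with a median of 0.21 in the authors' deposited table. They were Etv4, an ETS factor induced by ERK (1.86 ± 0.27, adjusted p = 5.93e-11), the feedback inhibitors Spry2 (1.00 ± 0.22, adjusted p = 1.75e-05) and Spry4 (0.60 ± 0.19, adjusted p = 0.00375), and the ERK phosphatase Dusp6 (0.69 ± 0.23, adjusted p = 0.00511), per the authors' deposited table, where Fgf4, the main FGF of embryonic stem cells, stood at -0.02 ± 0.15 (adjusted p = 0.958). The background of the dual-targeted comparison was 10.8% of all tested genes on the higher side and 10.1% on the lower. In the clones, where 9.05% of all tested genes were higher and 10.3% lower, 4 of 13 genes were higher and 2 lower. The 2 lower ones were the receptor Fgfr2 (-1.59 ± 0.26, adjusted p = 6.90e-09) and the ERK phosphatase Dusp4 (-1.66 ± 0.30, adjusted p = 2.66e-07), per the authors' deposited table. With the third dual-targeted line included these 2 were not called, at -0.16 ± 0.37 (adjusted p = 0.562) and -0.33 ± 0.46 (adjusted p = 0.278), per the authors' deposited table. Single-targeted lines had 1 higher, Etv4 at 1.23 ± 0.35 (adjusted p = 0.00281), and 1 lower, Dusp4 at -1.05 ± 0.40 (adjusted p = 0.0169), per the authors' deposited table. In that comparison 2.96% of all tested genes were called. Of 9 DNA methylation genes, 2 rose and 0 fell in dual-targeted lines (3 and 0 at an unadjusted p under 0.05 by DESeq2), Dnmt3l and Mbd3 (0.67 ± 0.26, adjusted p = 0.0164), per the authors' deposited table, a share near the 20.9% of all genes called there. In single-targeted lines the 2 higher ones were the demethylation enzymes Tet1 (0.58 ± 0.20, adjusted p = 0.0152) and Tet2 (0.70 ± 0.27, adjusted p = 0.0248) per the authors' deposited table.

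**Figure D4:**
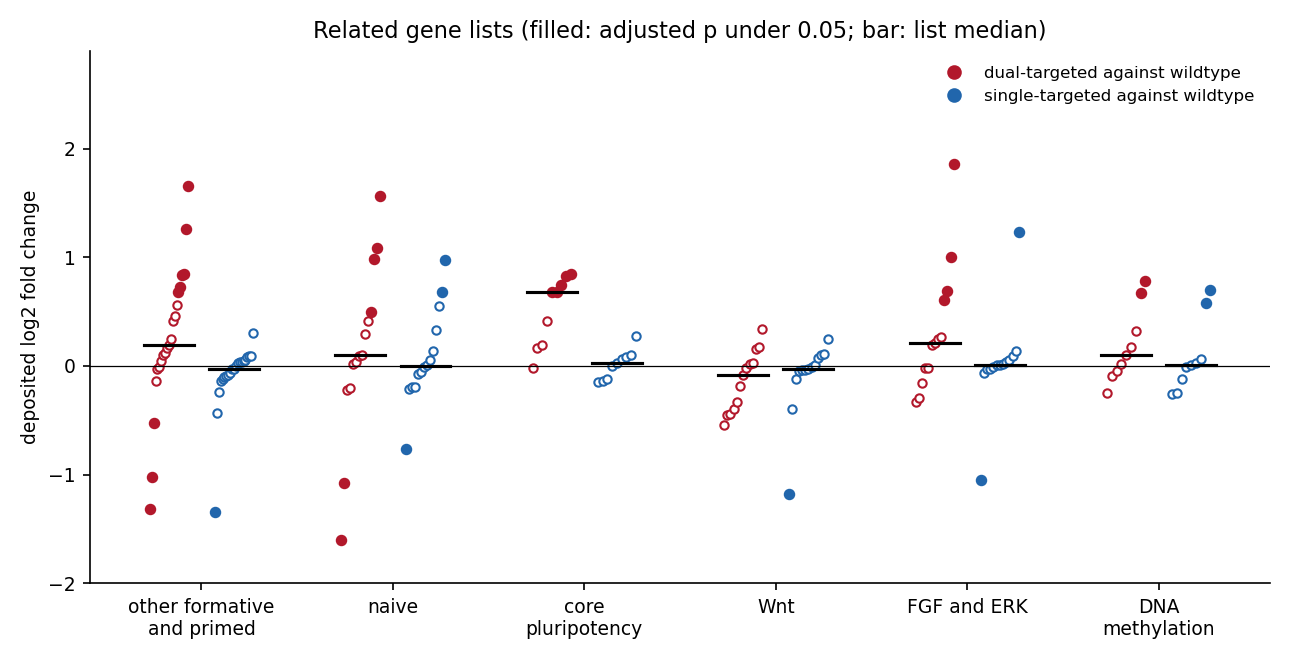
Deposited log2 fold change (vertical axis) of each listed gene of 6 related lists in dual-targeted lines against wildtype (red) and in single-targeted lines against wildtype (blue); filled points have an adjusted p under 0.05 and bars are list medians. The medians of the dual-targeted comparison run from -0.09 for the Wnt list to 0.68 for core pluripotency.

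Markers of other cell types were read beside these values. Of 6 genes of the mesoderm and primitive streak list 5 were not listed in the dual-targeted comparison (Evx1, Gsc, Mesp1, Mixl1 and T), and of 7 endoderm genes Foxa2 and Sox17 were not. The 5 neural ectoderm genes listed in all 4 comparisons summed to rebuilt means of 502.8 counts in the clones, 805.2 counts in the third dual-targeted line, 344.5 counts in single-targeted lines and 385.3 counts in wildtype cells. The list was not of 1 direction. In the clones 2 of its 6 listed genes were higher, Nes (1.36 ± 0.44, adjusted p = 0.00237) and Tubb3 (1.10 ± 0.32, adjusted p = 0.00118), per the authors' deposited table. The 2 lower ones were Pax6 (-0.58 ± 0.27, adjusted p = 0.0429) and Zfp521 (-3.20 ± 0.65, adjusted p = 2.72e-06), which the sum leaves out, per the authors' deposited table. The clone comparison had 9.05% of all tested genes higher and 10.3% lower. For 3 of 7 endoderm genes the sums were 1004, 1530, 841.6 and 450.5 counts in the same order, and for 2 of 6 trophectoderm genes they were 213.9, 610.9, 321.4 and 297.1 counts. Nearly all counts of the endoderm sum were those of the laminin gene Lamb1 (higher by 1.43 ± 0.21 in dual-targeted lines, adjusted p = 2.75e-10), while Gata4 and Dab2 were not called, per the authors' deposited table. Of the 5 endoderm genes listed in that comparison 2 were higher, Lamb1 among them, and 0 lower. Of 3 listed trophectoderm genes 1 was higher and 0 lower. Of all tested genes 10.8% were higher there and 10.1% lower. Of the fibroblast and feeder list Col1a1, Col1a2 and Col3a1 were not listed, and the other 3 summed to 4571, 5400, 6795 and 9615 counts. That sum was nearly all fibronectin, Fn1 (-1.01 ± 0.18 in dual-targeted lines, adjusted p = 3.46e-07), while vimentin, Vim, was higher (0.72 ± 0.28, adjusted p = 0.0146) and Thy1 was not called (0.30 ± 0.37, adjusted p = 0.361), per the authors' deposited table. The neural, endoderm and trophectoderm sums were highest in the third dual-targeted line, where Pou3f1 and Dnmt3b were highest too, and their part in these 2 values was not tested.

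Genes with the pattern nearest to each of the 6 members called in dual-targeted lines were sought among 9718 named genes, by Euclidean distance over the log2 ratios to wildtype of the single-targeted lines, the clones and the third dual-targeted line. For Lef1 they were Atp5k (distance 0.79), Id3 (0.79) and Dusp27 (0.86). Foxd3 had Slc23a1 (0.44), Gpc4 (0.73) and Irak3 (0.73), and Pou3f1 had Cnn2 (0.41), Ccnd2 (0.56) and Rhox5 (0.71). For Zic2 the nearest were Klf2 (0.54), Cachd1 (0.65) and Hist1h2bk (0.67). Zic5 had Hist4h4 (0.14), Hist1h4c (0.15) and Mvd (0.16), and Dnmt3b had Sox2ot (0.09), L3mbtl3 (0.13) and Ptk2b (0.14). These distances rest on 3 group means without error.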

How the data were processed

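TT-seq libraries of 8 samples were compared by the authors in 4 tables, each normalized and fitted separately. The tools named are DESeq2, featureCounts, STAR, SAMtools and deepTools, without versions, and the builds are GRCm38.p6 and mm10, per the submitters' processing notes. Per the file headers, each table gives a mean normalized count, a signal that the authors averaged over the libraries of that comparison, a log2 fold change, its standard error (a score on the log2 scale made by the authors), a p-value and an adjusted p-value, both made by the authors. An empty adjusted p was kept empty. Fold changes were read as shrunken, since for 100% of called genes they were smaller than the p implies with the deposited error. Values per library were not analysed here, so depth is unknown and its precision enters through the authors' standard errors alone.

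The means of wildtype cells, single-targeted lines, dual-targeted lines, clones and the third dual-targeted line were solved from the 4 means and the numbers of libraries. Scales of 0.983, 1.06 and 0.957 for the single-targeted, the dual-over-single and the clone table set the median gene of each group equal to wildtype, over 11099 genes whose mean count reached 50 in all 4 tables. For 100% of 2504, 351, 836 and 2284 called genes in the dual-targeted, single-targeted, dual-over-single and clone tables the rebuilt ratio had the sign of the deposited fold change, so that a positive value means more RNA in the mutant cells, or in the dual-targeted ones. The method was tested on simulated data, with counting noise alone and few changed genes. That setting is simpler than these data, so it does not show how well the scaling or the third dual-targeted line was recovered here. Members, lists and tests were chosen with earlier results of these data known. Named genes were the members, up to 4 genes per list by adjusted p, the 3 most similar genes for each member called in dual-targeted lines and the 5 listed genes on each side of the chromosome 14 members. Ctnnb1, Axin2, Notum, Tcf7l2, Tcf7, Dnmt1, Dnmt3l, Fgf4, Nodal, Lefty1, Lefty2, Klf2, the genes of other cell types, Clybl, Tmtc4, Gm42449, Gm12688 and Gm43352 were also named for their relation to a member or a list, after their values were seen. Wnt genes that were not listed were named as well. Positions came from GENCODE mouse release M21 (GRCm38) and promoters from RefSeq (GRCm38.p6), which held 7 of the 9 members. Alternatives were adjusted p under 0.01 and 0.1, Benjamini-Hochberg over every gene with a p, a minimum mean count of 50, leaving out the third dual-targeted line, rebuilt ratios and no scaling. Computation used matplotlib 3.10.9, scipy 1.17.1, pandas 2.3.3, numpy 2.4.6 and Python 3.11.15.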

Additional observations from a re-analysis of the deposited data

Results flagged for a closer look

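For Lef1 and Foxd3 the level of labelled RNA differed between the dual-targeted and the single-targeted lines by a direct test. Lef1 was higher in dual-targeted lines than in single-targeted lines by 2.64 on the log2 scale, and Foxd3 by 1.43, in the authors' deposited table (DESeq2). For the other 6 listed members this difference was not called, which does not show that they were alike. Each mutant line had a single library, so the error of this test is the variation between the 3 dual-targeted and between the 2 single-targeted lines.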

How the results depend on the processing

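In the dual-targeted comparison 6 members were called, 5 at an adjusted p under 0.01 (without Zic5), 7 at 0.1 (with Otx2) and 7 without dual-targeted replicate 3 (the third dual-targeted line, with Otx2 added at -1.01). In single-targeted lines 3 were called, or 4 at 0.1 (with Lef1). Dual over single, 2 were called, or 3 at 0.1 (with Dnmt3b). In the clones 7 were called, 5 at 0.01 (without Zic5 and Pou3f1) and 6 with a minimum mean count of 50, which Pou3f1 did not reach. Counts of called members stayed within 1.5 times of the main count otherwise, and Benjamini-Hochberg over every gene with a p left each at its main value. Rebuilt ratios moved 4 of 32 values by more than the deposited SE: Foxd3 (0.88) and Pou3f1 (0.99) in single-targeted lines, and Otx2 (0.60) and Pou3f1 (0.97) for dual over single; none of these was called, and no called value changed sign. With the tables left unscaled, 3 of 32 ratios to wildtype changed sign, Dnmt3a in the third dual-targeted line (-0.22) and over the dual-targeted lines (-0.11), and Dnmt3b in single-targeted lines (-0.05). Other log2 ratios of the third dual-targeted line moved too, Otx2 from -0.25 to -0.63, Zic2 from -1.09 to -1.79 and Zic5 from -0.44 to -0.92. For Zic2, Zic5 and Dnmt3a that line then lay below the clones, and with scaling it lay above them. Over all genes, 0.01 in place of 0.05 gave 2000 calls against 3444 in dual-targeted lines, 1720 against 3021 in the clones, 242 against 445 in single-targeted lines and 266 against 928 for dual over single, and 0.1 gave 695 in single-targeted lines and 1540 for dual over single. No paired analysis was possible because the tables hold no values per library, and for the same reason no other library could be left out.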
